A study of Mus musculus with 6 samples.

Results

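Arginine and proline metabolism is represented here by 10 genes chosen by symbol from the 26100 rows of the count table: the arginases *Arg1* and *Arg2*, the inducible nitric oxide synthase *Nos2*, the polyamine enzyme *Odc1*, the arginine-synthesis enzyme *Ass1*, the arginine transporters *Slc7a1* and *Slc7a2*, the proline-synthesis enzymes *Aldh18a1* and *Pycr1*, and the proline-oxidising enzyme *Prodh*. All 10 were found, each in 1 row, and all 10 were among the 16633 rows that passed a filter on low counts. They were measured by RNA sequencing in whole lung from 6 mice, 3 wild type (WT) and 3 carrying a knockout of *Clec7a* (KO), which encodes dectin-1, a receptor of myeloid cells for fungal beta-glucan. Every mouse of both genotypes had received bleomycin through the trachea, and the lungs were taken at day 14. Strain, age, sex and the design of the knockout allele are not stated in the labels. No lung without bleomycin was analysed here, so the values compare genotypes within injured lungs. In whole tissue, fewer cells of a type and less RNA per cell cannot be told apart.

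Arginine is shared between competing enzymes. Arginase splits it into urea and ornithine, and ornithine can be turned into polyamines by ornithine decarboxylase or, through an intermediate that is also made from glutamate, into proline, an abundant amino acid of collagen. Nitric oxide synthase uses the same arginine to make nitric oxide and citrulline, from which argininosuccinate synthase begins the way back to arginine. In the mouse, *Arg1* and *Nos2* are widely used to mark alternatively and classically activated macrophages, and in fibrosis proline synthesis serves fibroblasts that make collagen.

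The libraries held 31052936 to 34451956 counts. *Clec7a* was read at 60.6, 84.0 and 196.5 CPM (counts scaled to a common library size) in WT replicates 1, 2 and 3 and at 3.60, 6.85 and 2.84 CPM in the KO libraries, so each library went with its label. The replicate 1 libraries stood apart in both genotypes: their mean Spearman correlation with the other libraries was 0.936 (WT) and 0.939 (KO), against 0.957 to 0.962 in the other 4, and mitochondrially encoded transcripts took 7.34% of the counts in KO replicate 1 against 2.69% to 3.87% elsewhere. The summed lung epithelial markers (*Sftpc*, *Sftpb*, *Sftpa1*, *Ager*, *Scgb1a1*, *Nkx2-1* and *Foxj1*) were present in every library but ranged from 2027 to 20815 CPM in WT and from 4295 to 21018 CPM in KO, highest in replicate 1 of each genotype. Estimates without 1 or both of these libraries are given for some genes, among them *Arg1*, *Arg2*, *Nos2*, *Slc7a1* and *Prodh*, but not for every result.

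*Aldh18a1* and *Pycr1*, which catalyse successive parts of proline synthesis from glutamate, are shown by their promoters because they are steps of the same synthesis and hold different matches to the elements searched. The stretches were taken from the RefSeq promoter table (GRCm38.p6), which held 6 of the 10 genes, and cover the 250 bases before the start site, less bases that GENCODE places in an exon. Both genes lie on the minus strand, and the sequences run 5′ to 3′ towards the gene. Capitals mark matches, on either strand, to the letters searched: TGATGNAA (the composite element bound by ATF4 with C/EBP proteins), CACGTG (the E-box) and TTCNNNGAA (the STAT element).
*Aldh18a1*, chr19:40588464-40588713: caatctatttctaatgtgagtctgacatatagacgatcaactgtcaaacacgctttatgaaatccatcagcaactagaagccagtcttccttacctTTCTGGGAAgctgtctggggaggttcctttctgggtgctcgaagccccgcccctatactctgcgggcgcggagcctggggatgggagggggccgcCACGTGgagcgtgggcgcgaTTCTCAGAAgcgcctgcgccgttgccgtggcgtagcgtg
*Pycr1*, chr11:120643770-120643998: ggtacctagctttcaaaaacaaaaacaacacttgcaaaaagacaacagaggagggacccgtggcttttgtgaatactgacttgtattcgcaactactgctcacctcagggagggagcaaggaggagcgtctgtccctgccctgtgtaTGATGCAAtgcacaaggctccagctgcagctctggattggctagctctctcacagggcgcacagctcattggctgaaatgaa

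*Pycr1* held 1 match to TGATGNAA, TGATGCAA, from 103 to 96 bases before the start (-103 to -96), letters found in 3.45% of the 32851 promoter windows of that length. *Aldh18a1* held 1 CACGTG (-59 to -54, letters found in 6.02% of windows) and 2 matches to TTCNNNGAA (-154 to -146 and -39 to -31, found in 7.02%). ACGTG, the core of the hypoxia response element, was searched too. It lies within CACGTG and is found in 16.6% of windows. The STAT6 spacing, TTC and GAA with 4 bases between them, is held by 5.85% of windows and was found in no tabulated promoter of the 10 genes. *Ass1* held a CACGTG (-36 to -31), *Prodh* and the second promoter of *Slc7a1* each held a TTCNNNGAA, and *Odc1* held no match. The search covered all 250 bases, exonic ones too. These matches of *Ass1*, *Prodh* and *Slc7a1* lie in bases that GENCODE places in an exon. *Arg1*, *Arg2*, *Nos2* and *Slc7a2* had no entry in the promoter table. A match is a description of the letters only.

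Of the 10 genes, the arginases came first in size of difference, through *Arg1* alone. *Arg1*, the cytosolic arginase, stood at 818.1, 681.4 and 443.1 CPM in WT replicates 1, 2 and 3 and at 66.6, 22.9 and 15.5 CPM in KO replicates 1, 2 and 3. Every KO value lay below every WT value, and the highest KO library, replicate 1, was still far under the lowest WT library, replicate 3. The means were 647.5 ± 189.8 CPM in WT against 35.0 ± 27.6 CPM in KO (SD, n = 3 each), 18.5-fold lower in KO. The log2 fold change, always KO minus WT, was -4.21 ± 0.64 (SE), and 21 of the 16633 genes tested, 0.126%, had an estimate as low or lower. edgeR's quasi-likelihood test gave it an unadjusted p of 4.36e-04 and a Benjamini-Hochberg adjusted p of 0.203 over all genes, which does not pass 0.05, while DESeq2 gave an adjusted p of 2.69e-10. With both replicate 1 libraries left out the log2 fold change was -4.86 and edgeR's adjusted p was 0.0433, and without each library in turn it lay between -5.07 (without KO replicate 1) and -3.85 (without KO replicate 3), with adjusted p of 0.189 to 0.747. *Arg1* (ENSMUSG00000019987) is a protein-coding gene on chromosome 10 of GRCm38, from 24915221 to 24927484 on the minus strand, and no other annotated gene overlaps it.

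The other 9 genes are protein-coding too (GRCm38, whole gene, exons and introns). On the plus strand lie *Arg2* (ENSMUSG00000021125) at chr12:79130777-79156301, *Nos2* (ENSMUSG00000020826) at chr11:78920787-78960254, *Odc1* (ENSMUSG00000011179) at chr12:17544794-17551505, *Ass1* (ENSMUSG00000076441) at chr2:31470207-31520672 and *Slc7a2* (ENSMUSG00000031596) at chr8:40862396-40922308. On the minus strand lie *Slc7a1* (ENSMUSG00000041313) at chr5:148327410-148399904, *Aldh18a1* (ENSMUSG00000025007) at chr19:40550257-40588463, *Pycr1* (ENSMUSG00000025140) at chr11:120635712-120643769 and *Prodh* (ENSMUSG00000003526) at chr16:18060357-18090203.

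*Arg1* is known for its expression in activated macrophages, so markers of macrophages and other myeloid cells were read in the same libraries. edgeR called none of them after adjustment, as of all genes. DESeq2 called *Cd163* (adjusted p 1.57e-04) and *Cxcr2* (0.00272) lower, and *Car4* (0.0139), *Ear2* (0.0153) and *Krt79* (0.0278) higher. Of all genes it gave an adjusted p, it called 3.63%. Of 10 markers of interstitial and recruited macrophages, 9 had lower estimates in KO, with a median log2 fold change of -0.65, and 6 had KO values below all WT values, against 11.3% of all genes tested. Their summed level was 8389 to 11213 CPM in WT against 2678 to 6416 CPM in KO, none of them was at 0, and *Cd163*, a scavenger receptor, had the lowest estimate of the list at -2.83. The pan-macrophage gene *Adgre1* stood at 133.5 ± 53.0 CPM in WT against 98.3 ± 27.2 CPM in KO, with overlapping values. Of 8 alveolar macrophage markers 5 had higher and 3 lower estimates. Of this list *Car4*, which is also on the endothelial list, *Ear2* and *Krt79* had KO values above all WT values, against 9.81% of all genes tested. The sum of this list, 1212 to 1997 CPM in WT against 496.0 to 1647 CPM in KO, ran opposite to most of its members because *Chil3* made up 64.9% to 89.6% of it, and the other 7 summed to 186.0 to 226.6 CPM in WT and 171.4 to 506.8 CPM in KO. Of 7 tested neutrophil markers 6 were lower (sum 174.1 to 229.1 CPM in WT, 93.7 to 159.3 CPM in KO), and of 6 monocyte markers 4 were lower (sum 3564 to 14317 and 2252 to 8038 CPM). *Fn1* made up 35.1% to 90.6% of the monocyte sum. Without it the sum was 1458.9 to 2239.4 CPM in WT and 575.2 to 1462.5 CPM in KO. *Fn1* read 1928, 12078 and 12374 CPM in WT replicates 1, 2 and 3 and 790, 7284 and 3994 CPM in the KO libraries. The summed fibroblast markers were lowest in replicate 1 of each genotype too (4876 CPM in WT, 2357 CPM in KO). Which cells gave the *Fn1* reads was not tested. *Vcan* (-1.32), *Chil3* (-1.17), *Fn1* (-1.13) and *Ly6c2* (-0.14) were lower, *Ccr2* (0.51) and *Plac8* (0.34) higher, each with overlapping values.

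Set against these lists within each library, *Arg1* was lower in KO as well. Per 1000 counts of the interstitial and recruited macrophage list there were 97.5, 60.8 and 39.7 *Arg1* counts in the WT libraries and 10.4, 4.29 and 5.79 in the KO libraries, a 9.68-fold difference in means. Per 1000 counts of the alveolar macrophage list the mean was 406.6 ± 93.1 in WT and 36.6 ± 4.74 in KO (SD, n = 3 each), 11.1-fold lower. That value rests on *Chil3*: without it the difference was 28.1-fold. With the most abundant gene of each of the other lists left out (*Spp1*, *Fn1* and *S100a9*), a choice made after seeing the data, the folds were 11.5 for interstitial and recruited macrophages, 10.8 for monocytes and 10.2 for neutrophils, again with KO below all WT values. *Chil3* belongs to both the alveolar macrophage and the monocyte list, and *Car4* to both the alveolar macrophage and the endothelial list. Of the 7 endothelial markers 5 had higher and 2 lower estimates. KO values also lay below all WT values for the neutrophil list (means 3220 and 267.9) and for the monocyte list (8.63-fold), where WT replicate 3 at 32.0 and KO replicate 1 at 29.6 were close. How far the number of *Arg1*-expressing cells enters the difference was not tested.

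**Figure D1:**
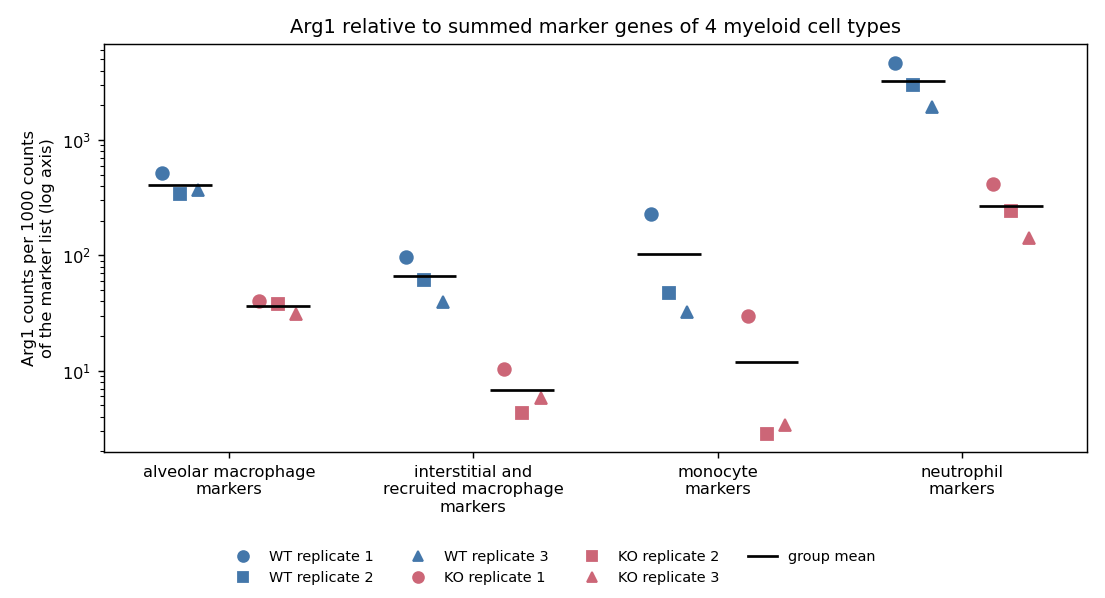
*Arg1* counts per 1000 summed counts of each marker list (log axis), for each of the 6 libraries, with group means as lines. KO libraries lie below WT libraries for all 4 lists, narrowly for monocytes (29.6 in KO replicate 1, 32.0 in WT replicate 3).

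*Arg2*, the mitochondrial arginase, did not share this pattern. It stood at 14.7, 4.73 and 4.90 CPM in WT replicates 1, 2 and 3 and at 14.0, 4.32 and 8.45 CPM in the KO libraries, so the groups overlapped and replicate 1 was highest in each. Its log2 fold change was 0.14 ± 0.61 (edgeR adjusted p 0.955), and the sign turned when WT replicate 2 (-0.14), WT replicate 3 (-0.12) or KO replicate 1 (-0.34) was left out. Without WT replicate 1 the estimate was 0.89. The gene shares 285 exonic bases with *Vti1b* on the opposite strand, and since the strand setting of the counting is not given, reads there could belong to either gene. *Vti1b* itself was at 69.1 CPM in WT against 76.4 CPM in KO.

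*Nos2*, the enzyme that competes with arginase for arginine in macrophages, was read at 2.76, 13.7 and 17.1 CPM in WT replicates 1, 2 and 3 and at 5.59, 26.9 and 14.6 CPM in the KO libraries. Replicate 1 was lowest in each genotype and the groups overlapped. The log2 fold change was 0.49 ± 0.77 (edgeR adjusted p 0.852), and it was -0.15 without KO replicate 2 and 0.03 without WT replicate 1.

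The ratio of the competing enzymes' transcripts can be read within each library and needs no scaling between libraries. There were 296.0, 49.6 and 25.9 *Arg1* counts for each *Nos2* count in WT replicates 1, 2 and 3, and 11.9, 0.852 and 1.06 in the KO libraries. In KO replicates 2 and 3 the counts of both genes were thus close to equal, while in each WT library *Arg1* was well ahead. The mean log2 ratio, with 0.5 counts added to each gene, was 6.18 ± 1.82 in WT and 1.14 ± 2.11 in KO (SD, n = 3 each), a difference of -5.03. KO values were below all WT values, and the exact 2-sided permutation test gave p = 0.1, the smallest that 3 against 3 samples allow. Counts are not per length here, so the ratio compares libraries and not the levels of the 2 genes.

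**Figure D2:**
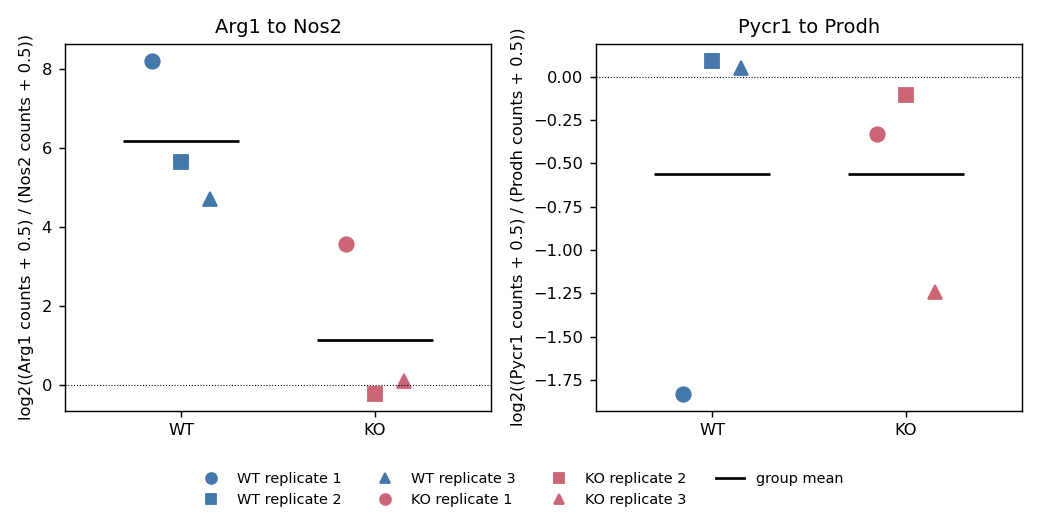
Log2 ratio of counts, with 0.5 added to each, in each library for *Arg1* to *Nos2* and for *Pycr1* to *Prodh*; lines are group means and the dotted line marks equal counts. The *Arg1* to *Nos2* ratio lies between 4.69 and 8.20 in WT and between -0.23 and 3.57 in KO, and the *Pycr1* to *Prodh* ratio overlaps.

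*Ass1*, which joins citrulline and aspartate in the resynthesis of arginine, was the member whose KO values lay above all WT values. It stood at 15.6, 18.2 and 22.3 CPM in WT against 23.5, 33.9 and 23.9 CPM in KO. The gap between the highest WT library, replicate 3, and the lowest KO library, replicate 1, was small. The means were 18.7 ± 3.36 and 27.1 ± 5.93 CPM (SD, n = 3 each), 1.45-fold higher in KO, with a log2 fold change of 0.54 ± 0.23 that did not pass edgeR (unadjusted p 0.0580, adjusted p 0.440). A processed pseudogene, *Gm5424*, matches 1240 bases of the *Ass1* transcript at 99.5% identity, so reads could be shared with it.

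*Odc1*, ornithine decarboxylase, the entry step of polyamine synthesis, had the smallest SD relative to its mean among WT libraries. WT replicates 1, 2 and 3 read 220.6, 229.9 and 214.4 CPM and the KO libraries 173.5, 158.2 and 208.2 CPM. All KO values lay below all WT values, KO replicate 3 only just. The log2 fold change was -0.30 ± 0.18 (edgeR adjusted p 0.570). Several processed pseudogenes are over 90% identical to long stretches of *Odc1*, the closest at 97.8% over 937 bases, so its counts are uncertain to the extent that such reads were shared.

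The arginine transporters had lower mean levels in KO with overlapping values. *Slc7a1*, the widely expressed cationic amino acid transporter, read 39.7, 55.1 and 51.7 CPM in WT against 17.5, 36.6 and 41.2 CPM in KO. Only WT replicate 1 reached into the KO range, and KO replicate 1 was the lowest of all 6. Its log2 fold change was -0.62 ± 0.34 (edgeR adjusted p 0.526), -0.33 without KO replicate 1 and -0.45 without both replicate 1 libraries. *Slc7a2*, the transporter that macrophages induce on activation, ranged more widely, with 64.5, 161.7 and 204.7 CPM in WT against 99.5, 155.9 and 96.1 CPM in KO. Its WT range enclosed every KO value (log2 fold change -0.29 ± 0.44, edgeR adjusted p 0.841). The estimate was 0.05 without WT replicate 3 and -0.65 without WT replicate 1. *Slc7a2* shares 635 exonic bases with *Gm26584*, a long noncoding RNA gene on the opposite strand. As the strand setting of the counting is not given, reads there could belong to either gene.

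The genes of proline synthesis had lower estimates in KO, and neither passed the threshold. *Aldh18a1*, which turns glutamate into the intermediate shared with ornithine, read 28.8, 37.5 and 40.8 CPM in WT against 23.5, 34.6 and 27.3 CPM in KO (log2 fold change -0.33 ± 0.22, edgeR adjusted p 0.611). *Pycr1*, which completes proline, read 4.73, 6.95 and 7.38 CPM in WT against 5.21, 7.38 and 4.32 CPM in KO (log2 fold change -0.17 ± 0.33, adjusted p 0.880). Both overlapped, and WT replicate 1 was the lowest WT library for each. The summed fibroblast markers, *Col1a1* among them, were low in replicate 1 of both genotypes: the sum was 4876 CPM in WT replicate 1 against 17664 and 20183 CPM in WT replicates 2 and 3, and 2357 CPM in KO replicate 1 against 13568 and 7491 CPM in KO replicates 2 and 3.

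*Prodh*, which begins the breakdown of proline, stood at 16.9, 6.52 and 7.12 CPM in WT against 6.57, 7.95 and 10.2 CPM in KO. WT replicate 1 was the highest of all 6, while WT replicates 2 and 3 lay near the low end of the KO values, so the sign of the estimate rested on that library. The log2 fold change was -0.30 ± 0.43 (edgeR adjusted p 0.836), 0.27 without WT replicate 1 and 0.42 without both replicate 1 libraries. The log2 ratio of *Pycr1* to *Prodh*, synthesis against breakdown, was -1.83, 0.09 and 0.05 in WT replicates 1, 2 and 3 and -0.33, -0.11 and -1.24 in the KO libraries. The group means were -0.56 ± 1.10 and -0.56 ± 0.60 (SD, n = 3 each), with an exact 2-sided permutation p of 1.

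**Figure D3:**
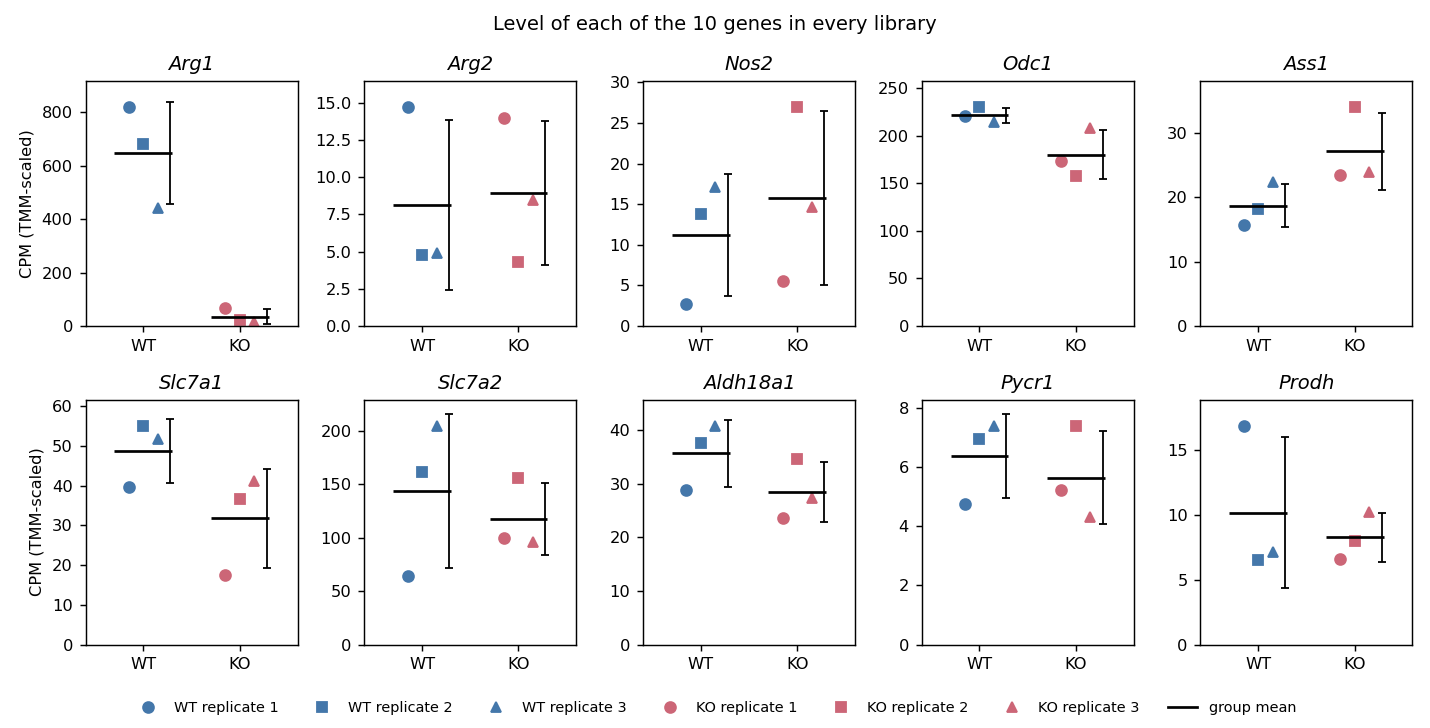
CPM of each gene in every library (linear axes from 0, with a separate scale for each gene); lines are group means and bars the SD of 3 libraries. The groups are far apart for *Arg1* (443.1 to 818.1 against 15.5 to 66.6), do not overlap by a small margin for *Odc1* and *Ass1*, and overlap for the other 7.

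Across the 10 genes, 3 had estimates higher in KO and 7 lower, with a median of -0.30, against 49% of all genes tested with a higher estimate and a median of -0.01. edgeR called 0 of the 10 at an adjusted p under 0.05, as it did of all genes (0% called). At an unadjusted p under 0.05 it had 1 of the 10, *Arg1*, against 11.8% of all genes. DESeq2 called 1 of the 10, again *Arg1*, against 3.63% of the genes it gave an adjusted p, and limma-voom called 0. KO and WT values did not overlap for 3 of the 10, against 21.1% of genes, a share near the background. The other 9 genes all had estimates smaller than 2-fold in either direction. The first replicates, which stood apart, were both the highest of their genotype for 2 of the 10 genes (*Arg1*, *Arg2*) and both the lowest for 4 (*Nos2*, *Ass1*, *Slc7a1*, *Aldh18a1*).

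**Figure D4:**
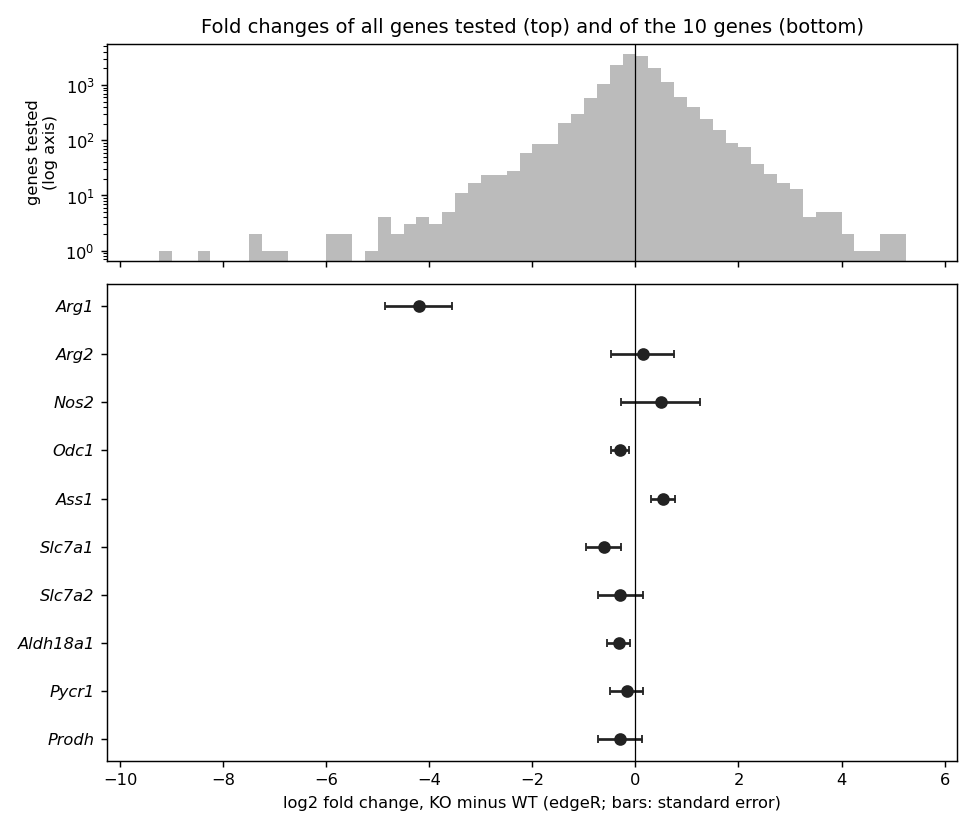
Log2 fold changes (KO minus WT) from edgeR for all 16633 genes tested, as a histogram with a log count axis, and for the 10 genes with standard errors. *Arg1* at -4.21 lies in the low tail, and the other 9 lie between -0.62 and 0.54.

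The level of each gene per length was read from the deposited FPKM values (adjusted for the length of the gene and for depth). In WT lungs *Arg1* was the highest of the 10 at 409.5 ± 106.8 FPKM, above *Odc1* at 95.9 ± 5.24 FPKM and *Slc7a2* at 21.3 ± 13.3 FPKM (SD, n = 3 each). *Ass1* (10.4 ± 2.23), *Aldh18a1* (9.79 ± 2.01), *Slc7a1* (6.42 ± 1.29), *Arg2* (5.22 ± 3.44), *Prodh* (4.09 ± 2.27), *Pycr1* (3.10 ± 0.83) and *Nos2* (3.00 ± 2.05 FPKM) followed. From *Slc7a2* downwards, neighbours in this order differed by less than the larger of their SDs, apart from *Aldh18a1* and *Slc7a1*. In KO lungs *Odc1* came first at 81.6 ± 11.7 FPKM. *Arg1* came next at 23.0 ± 17.7 FPKM, with a spread that takes in *Slc7a2* at 18.3 ± 3.14 and *Ass1* at 15.7 ± 3.70 FPKM. *Aldh18a1* (8.28 ± 1.74), *Arg2* (6.07 ± 3.20), *Nos2* (4.42 ± 3.05), *Slc7a1* (4.36 ± 1.78), *Prodh* (3.57 ± 0.82) and *Pycr1* (2.87 ± 0.83 FPKM) followed, so per length *Arg1* was still above *Nos2* in group mean. In WT *Arg1* gave 43.7% to 66.7% of the counts of the 10 genes together, and in KO 3.45% to 15.3%.

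The wider pathway was described through 9 lists of other genes, 95 symbols in all. The symbol *Pycr3* was not found, though *Pycrl* of the same list was. The other 94 were in the table, and 84 of them were tested. Of these 31 had higher and 53 lower estimates in KO, with a median of -0.19. edgeR called 0 of them after adjustment. At an unadjusted p under 0.05 it had 5 higher and 11 lower, against 5.95% and 5.89% of all genes in those directions, and limma-voom called 0. DESeq2, which gave 89 of the 94 an adjusted p, called 3 higher and 2 lower, against 1.91% and 1.73% of all genes it gave one. For 8 of the 84 each KO value exceeded each WT value, and for 16 the reverse held, against 9.81% and 11.3%.

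Polyamine genes had mostly lower estimates, 13 of 16, with a median of -0.27. *Srm*, spermidine synthase, read 37.9, 39.9 and 36.9 CPM in WT against 21.6, 25.1 and 24.1 CPM in KO, with little spread in either group and a clear gap between them. Its log2 fold change was -0.70 ± 0.16 (edgeR unadjusted p 0.00318, adjusted p 0.234), and DESeq2 called it (adjusted p 0.0174). *Azin2*, an antizyme inhibitor that protects ornithine decarboxylase from degradation, was at 27.9 ± 9.08 CPM in WT against 14.0 ± 1.87 CPM in KO (SD, n = 3 each), without overlap. *Sat1*, which acetylates polyamines for export and breakdown, was at 423.3 ± 193.0 and 257.5 ± 57.4 CPM, with overlap.

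The list for hydroxylation of the proline of collagen, which holds enzymes and their partners, leaned the same way, 8 of 10 lower with a median of -0.58. Among its catalytic genes, *P4ha2*, *P4ha3*, *P3h1* and *P3h3* had lower estimates and *P4ha1* and *P3h2* higher ones. *P3h4*, a partner of the lysyl and prolyl hydroxylases of collagen, was at 41.9 ± 1.53 CPM in WT against 24.7 ± 4.38 CPM in KO, and *P4ha2*, a catalytic subunit of collagen prolyl 4-hydroxylase, at 54.5 ± 9.66 and 32.1 ± 4.66 CPM (SD, n = 3 each). Neither overlapped, and their log2 fold changes were both -0.76, with edgeR adjusted p of 0.244 and 0.269. *P4ha1*, the other main catalytic subunit, went the opposite way, at 62.1, 80.1 and 71.3 CPM in WT against 88.5, 103.1 and 93.4 CPM in KO. The fibroblast markers had 7 of 8 estimates lower, with a median of -0.65 and sums of 4876 to 20183 CPM in WT against 2357 to 13568 CPM in KO. Their part in these differences was not tested.

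Around ornithine and proline 7 of 11 tested genes were lower and 4 higher, with a median of -0.13. *Aldh4a1*, which finishes the oxidation of proline that *Prodh* begins, was at 18.1, 16.1 and 19.0 CPM in WT against 26.2, 24.1 and 32.0 CPM in KO, all KO values above WT (log2 fold change 0.63 ± 0.19, edgeR adjusted p 0.292). *Hoga1*, an enzyme of hydroxyproline breakdown, was at 5.14 ± 0.30 and 3.16 ± 0.33 CPM (-0.70, adjusted p 0.390). *Oat*, which links ornithine to the proline intermediate, was at 197.3 ± 35.6 CPM in WT against 202.6 ± 21.5 CPM in KO (SD, n = 3 each). *Prodh2*, *Agmat* and *Slc7a9* had 0 counts in every library.

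In the nitric oxide list 9 of 12 genes were higher, with a median of 0.17 and no member at an unadjusted p under 0.05. *Nos3*, the endothelial synthase, was at 47.7 ± 10.6 CPM in WT against 28.5 ± 9.47 CPM in KO, and *Prmt1*, the main methyltransferase of protein arginine, at 97.3 ± 23.2 and 64.0 ± 15.4 CPM (SD, n = 3 each), both with overlap. *Gch1*, which begins the synthesis of the cofactor of nitric oxide synthases, was at 25.2 ± 11.1 and 25.3 ± 2.21 CPM.

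In the urea cycle list *Otc*, which turns ornithine into citrulline, had 0, 0 and 3 counts in WT and 13, 14 and 10 in KO, and *Cps1* did not pass the filter. *Asl*, which completes the resynthesis of arginine after *Ass1*, was at 24.6 ± 9.93 and 20.6 ± 6.78 CPM in WT and KO (SD, n = 3 each), with overlap. The mitochondrial ornithine carrier *Slc25a15* was at 19.3 ± 1.95 CPM in WT against 14.0 ± 2.16 CPM in KO, without overlap (log2 fold change -0.47, edgeR adjusted p 0.433). Among other transporters 4 of 7 were lower. *Slc7a6*, which exchanges arginine across the membrane, was at 56.4 ± 5.98 and 36.2 ± 14.0 CPM (-0.64, adjusted p 0.498), and *Slc7a3* was under 1 CPM in every library. *Slc3a1*, which edgeR's filter removed and which was singled out after its values were seen, had 0 counts in each WT library and 0.126 to 0.463 CPM in KO, and it is among the 3 that DESeq2 called higher (adjusted p 0.0459).

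In the creatine list *Slc6a8*, the creatine transporter, read 115.7, 105.1 and 111.5 CPM in WT against 42.1, 72.2 and 58.3 CPM in KO (-0.95 ± 0.23, edgeR adjusted p 0.240, DESeq2 adjusted p 0.0246). *Ckm*, the creatine kinase of muscle, was at 0.874 ± 0.346 CPM in WT against 5.03 ± 1.62 CPM in KO (2.52 ± 0.47, edgeR adjusted p 0.203, DESeq2 adjusted p 5.61e-05). The heart muscle gene *Myh6* ranged from 16.1 to 119.9 CPM in WT and from 22.0 to 153.4 CPM in KO, and *Acta1* of skeletal muscle was under 2 CPM throughout. Their part in the value of *Ckm* was not tested. In the glutamate list 5 of 7 were lower, and *Got2* (113.8 ± 19.3 and 82.0 ± 1.71 CPM) and *Glud1* (355.3 ± 11.8 and 273.7 ± 24.5 CPM) did not overlap (SD, n = 3 each), with edgeR adjusted p of 0.391 and 0.474.

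Among genes known to control the members, 4 of 10 tested had higher and 6 lower estimates, with a median of -0.09. *Irf1*, an inducer of *Nos2*, was at 49.1 ± 16.3 and 80.8 ± 16.3 CPM (SD, n = 3 each) in WT and KO, without overlap (log2 fold change 0.72, edgeR adjusted p 0.431). Markers of T, NK and innate lymphoid cells were higher beside it in 6 of 7 (median 1.31), with KO values above all WT values for 5 of them, against 9.81% of all genes, and sums of 22.2 to 42.9 CPM in WT and 38.8 to 67.6 CPM in KO. Their part in the level of *Irf1* was not tested. *Stat6*, which carries the interleukin-4 and interleukin-13 signal to *Arg1*, was at 126.2 ± 5.57 CPM in WT against 125.7 ± 12.6 CPM in KO, and *Il4ra*, the receptor chain shared by these cytokines, at 425.8 ± 67.3 and 300.9 ± 131.5 CPM with overlap. The cytokine genes were at the limit of detection and were not tested: *Il4* had 5 counts in KO replicate 2 and 0 elsewhere, *Il13* had at most 3 counts in any library, and *Ifng* had 0 to 5 counts in WT and 4, 20 and 5 counts in the KO libraries.

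**Figure D5:**
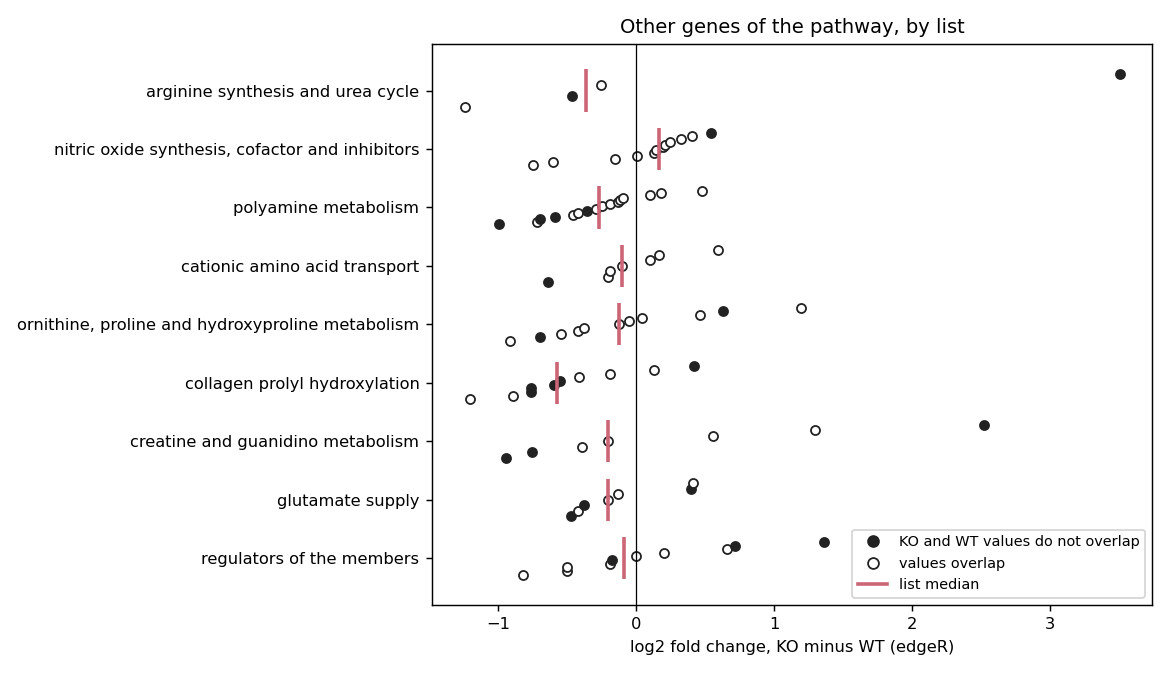
Log2 fold change (KO minus WT, edgeR) of the 84 tested pathway genes by list; filled points have KO and WT values that do not overlap and the red line is the list median. Medians run from -0.58 for collagen prolyl hydroxylation to 0.17 for nitric oxide synthesis, and *Otc* (3.50) and *Ckm* (2.52) lie far right at low levels.

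The genes whose log2 CPM over the 6 libraries lay closest to that of *Arg1*, the 3 highest by Pearson correlation of 11691 genes with a mean of at least 5 CPM, were the linker histone gene *H1f0* (0.996), *Ccdc32* (0.994) and *Stx18* (0.993). Their own differences were smaller, with log2 fold changes of -0.90, -0.43 and -0.39. For *Nos2* they were *Tbl1x* (0.998), *N4bp3* (0.997) and *Rassf5* (0.995), for *Pycr1* the matrix gene *Aspn* (0.989), *Zdhhc20* (0.980) and *Prune2* (0.979), and for *Prodh* *Tbc1d25* (0.990), *Nectin4* (0.990) and *Art3* (0.985). With 6 points that share libraries, and a choice of the highest among so many genes, these values describe likeness only.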

How the data were processed

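Whole-lung RNA from 3 WT and 3 KO mice was extracted with TRIzol and made into libraries with an NEBNext Ultra kit, per the labels' protocols. The authors deposited whole-number read counts per gene without normalization, and also deposited FPKM values. The tools HISAT2 2.0.4, StringTie 1.3.4d and GRCm38 are named, without roles, in the submitters' processing notes. The strand setting, the annotation release and the treatment of shared reads are not stated there or in the labels. Each count column was tied to its sample through genotype and number, and the KO columns of the FPKM table to the KO group only. The series' design text gives 3 mice per genotype, so a p-value reflects the spread between mice as sampled here.

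Counts were tested with edgeR 4.0.16 (R 4.3.3): filterByExpr kept 16633 of 26100 rows, TMM factors scaled the libraries, and the quasi-likelihood test (robust, genotype as the only term) was 2-sided. P-values were adjusted by Benjamini-Hochberg over all genes tested, with a threshold of 0.05. CPM uses TMM-scaled library sizes. The SE was derived from the F statistic and the log2 fold change. The scripts were tested on simulated counts. Alternatives were DESeq2 1.42.0, limma-voom (limma 3.58.1), other scalings, filters and prior, FPKM on a log2 scale with a pseudocount of 1 or 0.1, the replicate number as a block, and libraries left out. At these depths, counting error matters mainly for genes of few counts. Coordinates are from GENCODE M21 (GRCm38).

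The 10 genes and the lists were chosen with earlier results of these data known. Named beside the 10 were, for each list, genes past the threshold or otherwise the 2 with the smallest p, and the 3 genes most correlated with *Arg1*, *Nos2*, *Pycr1* and *Prodh*. Other genes were named after their values were seen, among them *P4ha1*, *Sat1*, *Oat*, *Gch1*, *Nostrin*, *Stat6*, *Il4ra* and the cytokine genes. A result for a gene that this rule names in the list of regulators is not reported here.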

Additional observations from a re-analysis of the deposited data

How the results depend on the processing

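The estimate of *Arg1* kept its sign in all 18 alternatives, from -5.07 to -3.85, and passed 0.05 in 2 of them: DESeq2, and edgeR with both first replicates left out. Over the 10 genes, the count called was 1 in each of these and 0 in the other 16. DESeq2 called 678 of all genes and 5 of the pathway genes. Over all genes, log2(FPKM + 0.1) called 3 and leaving out both first replicates called 46, and leaving out single libraries called 0 to 3. With the replicate number as a block, edgeR called 0 genes, 0 of the 10 and 0 pathway genes, and *Arg1* had an adjusted p of 0.128. The paired *Arg1* to *Nos2* difference was -5.03 with an exact sign-flip p of 0.25, and that of *Pycr1* to *Prodh* was 0.0013. Deviations of same-numbered libraries correlated at 0.35, 0.35 and -0.10, and WT replicate 3 correlated best with KO replicate 2 (0.47), so the numbers were not taken as pairs. Of 180 estimates for the 10 genes, 8 turned sign, all of genes that no alternative called: *Arg2* (-0.34 to 0.89 as single libraries were left out), *Nos2* (-0.15 to 0.93), *Slc7a2* (-0.65 to 0.0499, and 0.0066 on log2(FPKM + 0.1)) and *Prodh* (-0.54 to 0.27, and 0.42 without both first replicates). The *Arg1* to *Nos2* log2 difference ranged from -6.25 to -4.02 as single libraries were left out. That of *Pycr1* to *Prodh*, 0.0013, ranged from -0.63 to 0.34, was -0.0238 on FPKM and -0.75 without both first replicates. The cause of these shifts was not tested. Medians of all genes moved by less than 0.1 under every scaling.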
